A study of Homo sapiens with 9 samples.

Results

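The 10 genes described here code for subunits and partners of Polycomb repressive complex 2 (PRC2). They are EZH1, EZH2, EED, SUZ12, JARID2, AEBP2, PHF19, MTF2, RBBP4 and RBBP7, taken from a list of symbols and matched to 10 of the 57338 Ensembl identifiers in the table. RNA had been measured in HEK293T cells, a human embryonic kidney line, 3 days after transfection with plasmids for EGFP alone (empty vector), for EGFP joined to human protamine 1 (hPRM1) or for EGFP joined to human protamine 2 (hPRM2). The cells were sorted for high EGFP, so the control libraries also came from transfected and sorted cells, and each of the 3 conditions had 3 libraries. Protamines are the small basic proteins that replace histones in sperm, and the study asked how they change the chromatin and transcription of somatic cells.

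PRC2 places methyl groups on lysine 27 of histone H3, the mark of genes that are kept silent through development. Its catalytic subunit is either EZH2, which is typical of dividing cells, or EZH1, which is typical of resting and differentiated cells and is the weaker methyltransferase. EED and SUZ12 complete the core, RBBP4 and RBBP7 are histone-binding WD40 proteins that the core shares with other chromatin complexes, and MTF2, PHF19, JARID2 and AEBP2 are accessory subunits that bring the complex to its sites.

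The promoters of EZH2 and EZH1 are shown because the comparison of these genes leads the results. Those of SUZ12 and JARID2 are shown because SUZ12 was called lower with EZH2, in the libraries labelled hPRM1, and JARID2 was not. Each sequence is the 250 bases before a RefSeq start of the gene on GRCh38.p14, written 5′ to 3′ on the strand of the gene. EZH2 and JARID2 had 2 starts each, of which the most upstream was used. Capitals mark CCAAT boxes (CCAAT, or ATTGG on the other strand) and E2F sites (TTTGGCGC, TTTGCCGC, TTTCGCGC or TTTCCCGC, or their reverse complements), and the motifs do not overlap in these windows. EZH2 is on the minus strand at chr7:148884292-148884541, EZH1 on the minus strand at chr17:42745041-42745290, SUZ12 on the plus strand at chr17:31936757-31937006 and JARID2 on the plus strand at chr6:15245819-15246068.
EZH2: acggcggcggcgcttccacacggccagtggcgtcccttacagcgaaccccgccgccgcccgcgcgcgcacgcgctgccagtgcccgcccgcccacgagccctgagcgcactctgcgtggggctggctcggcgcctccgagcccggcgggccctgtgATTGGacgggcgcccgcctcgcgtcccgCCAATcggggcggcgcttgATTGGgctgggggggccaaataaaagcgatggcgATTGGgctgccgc
EZH1: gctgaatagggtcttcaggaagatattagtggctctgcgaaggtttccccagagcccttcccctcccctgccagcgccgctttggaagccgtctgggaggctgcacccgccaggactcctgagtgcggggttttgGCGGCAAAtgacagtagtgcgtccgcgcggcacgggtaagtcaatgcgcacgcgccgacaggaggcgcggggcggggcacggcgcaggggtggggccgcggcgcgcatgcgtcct
SUZ12: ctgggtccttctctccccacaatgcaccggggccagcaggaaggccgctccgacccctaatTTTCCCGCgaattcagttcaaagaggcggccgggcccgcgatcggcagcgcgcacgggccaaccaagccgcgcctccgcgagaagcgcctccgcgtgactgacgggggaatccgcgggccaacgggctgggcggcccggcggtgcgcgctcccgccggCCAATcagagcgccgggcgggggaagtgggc
JARID2: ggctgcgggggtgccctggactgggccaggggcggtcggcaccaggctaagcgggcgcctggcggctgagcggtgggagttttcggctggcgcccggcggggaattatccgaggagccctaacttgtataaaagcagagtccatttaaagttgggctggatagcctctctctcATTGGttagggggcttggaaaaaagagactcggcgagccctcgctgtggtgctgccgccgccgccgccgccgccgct
The EZH2 window held 4 CCAAT boxes, which began 94, 66, 47 and 13 bases before the start, and 0 E2F sites. The EZH1 window held 0 CCAAT boxes and 1 E2F site. At least 1 CCAAT box lay in the windows of 7 of the 10 genes (EZH2, EED, SUZ12, JARID2, PHF19, RBBP4 and RBBP7), against 32.0% of 35116 RefSeq promoters of the same length. An E2F site lay in the windows of 4 genes (EZH1, SUZ12, AEBP2 and PHF19), against 2.79% of promoters. Each of the 10 genes entered with its most upstream start, while the 35116 promoters hold every listed start. These are matches of letters and were not tested as binding sites.

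The values are RPKM, reads scaled to the length of the gene and to the total of the library, from libraries that are read at the 3′ end of transcripts. Division by length therefore lowers long genes against short ones, and levels of different genes are compared here with that limit. The reads on genes, estimated from the values themselves, ranged from 7930000 to 10790000 in the empty vector, 4210000 to 5860000 in the libraries labelled hPRM1 and 1270000 to 2650000 in hPRM2. The study itself reported fewer reads from hPRM1 than from hPRM2 samples, the reverse of the order in this estimate. PRM2 was at 71224, 60050 and 36130 RPKM in hPRM2 replicates 1, 2 and 3 and was listed at 0 in the other 6 libraries. PRM1 was listed at 0 in all 9 libraries, the 3 labelled hPRM1 included. Where the plasmid transcript ends relative to the annotated PRM1 gene was not analysed, and these libraries are therefore named by their label throughout, on which each hPRM1 direction rests.

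The 3 libraries labelled hPRM1 also went against their cell line label. Of 12 markers of HEK293T cells, 7 were listed at 0 in all 3 of them, LIN28B, IGF2BP1 and NEFM included, CKB had a mean of 8.94 RPKM against 3465 RPKM in the empty vector, and the summed level of the 12 was 8.23 to 11.7 RPKM, against 3158 to 4858 RPKM in the empty vector and 1462 to 5273 RPKM in hPRM2. The summed level of 16 leukocyte markers was 6719 to 7803 RPKM in the libraries labelled hPRM1, 1.01 to 4.92 RPKM in the empty vector and 0.638 to 4.14 RPKM in hPRM2. PTPRC, a surface protein of white blood cells, was at 96.8, 149 and 130 RPKM in the 3 libraries labelled hPRM1 and was listed at 0 in 2 of the 3 empty vector libraries. All 16 leukocyte markers and 4 of the 4 platelet markers tested were called higher, led by TYROBP, S100A9 and, among the platelet genes, PF4, which had a mean of 389 ± 88.0 RPKM (SD, n = 3) against 1.48 ± 2.57 RPKM. The other platelet genes were at means of 13.0 RPKM for PPBP, 11.3 RPKM for TUBB1, 34.2 RPKM for ITGA2B and, untested, 2.08 RPKM for GP9. Of 12 red cell markers, 10 were tested and 9 called higher, with HBB at 818732 ± 65851 RPKM (SD, n = 3) and listed at 0 in the empty vector, and HBA2 at 1146420 to 1295700 RPKM against at most 17.98 RPKM. Of all tested genes, 12.9% were called higher. A marker listed at 0 in the empty vector could be tested only through the libraries labelled hPRM1. The library numbers in their labels belong to another run of numbers than those of the remaining 6 libraries, so batch and condition cannot be told apart, and the part of the blood markers in the PRC2 results was not tested. In a bulk sample, fewer cells of a type and less RNA per cell cannot be told apart.

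The contrast of the catalytic subunits separated the libraries labelled hPRM1 from the other 6. EZH2 exceeded EZH1 in all 6 libraries of the empty vector and hPRM2, and EZH1 exceeded EZH2 in all 3 libraries labelled hPRM1. As deposited, EZH2 was lower in the libraries labelled hPRM1 than in the empty vector, while the levels of EZH1 overlapped. After rescaling by the median of ratios EZH2 was still lower there and EZH1 was higher, so the size of each change depends on the scaling. Multiplying a library by 1 factor, as the median of ratios does, leaves their ratio within a library as it is.

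EZH2 (ENSG00000106462, chr7:148807383-148884321, minus strand) was at 42.2, 54.8 and 30.9 RPKM in empty vector replicates 1, 2 and 3. It was at 1.53, 1.502 and 2.04 RPKM in the libraries labelled hPRM1 and at 7.54, 19.5 and 19.2 RPKM in hPRM2. The 3 groups did not overlap, with the empty vector highest and the libraries labelled hPRM1 lowest.
EZH1 (ENSG00000108799, chr17:42700275-42745049, minus strand) was at 11.6, 7.67 and 2.04 RPKM in the empty vector. It was at 4.66, 9.14 and 4.83 RPKM in the libraries labelled hPRM1 and at 1.12, 1.44 and 2.04 RPKM in hPRM2. The libraries labelled hPRM1 lay within the wide range of the empty vector, and all 3 hPRM2 libraries lay below those labelled hPRM1.
With the longest transcript of GENCODE 29 as the length, the EZH1 values of hPRM2 replicates 1, 2 and 3 stand for at most 13, 8 and 14 reads, and the EZH2 values of the libraries labelled hPRM1 for at most 30, 21 and 36 reads, so these levels carry a large counting error.

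Within a library, the log2 ratio of EZH2 to EZH1 was 1.87, 2.84 and 3.92 in empty vector replicates 1, 2 and 3, which is a ratio of 3.65, 7.14 and 15.1. It was -1.60, -2.60 and -1.24 in the libraries labelled hPRM1, a ratio of 0.329, 0.164 and 0.422, and it was 2.75, 3.76 and 3.23 in hPRM2, a ratio of 6.70, 13.6 and 9.37. The libraries labelled hPRM1 were thus apart from the other 6, and hPRM2 lay inside the range of the empty vector.
The group means were 2.87 ± 1.03, -1.82 ± 0.70 and 3.24 ± 0.51 (SD, n = 3 each) for the empty vector, the libraries labelled hPRM1 and hPRM2. The libraries labelled hPRM1 differed from the empty vector by -4.69 and from hPRM2 by -5.06 on the log2 scale (two-sided exact permutation tests, p = 0.1 each, adjusted p = 0.15 over 3 comparisons). A p of 0.1 is the smallest that 3 libraries against 3 allow, so no comparison of this kind could pass 0.05. hPRM2 differed from the empty vector by 0.37 (exact permutation test, two-sided, p = 0.7), and this difference turned to -0.13 without empty vector replicate 1.

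**Figure D1:**
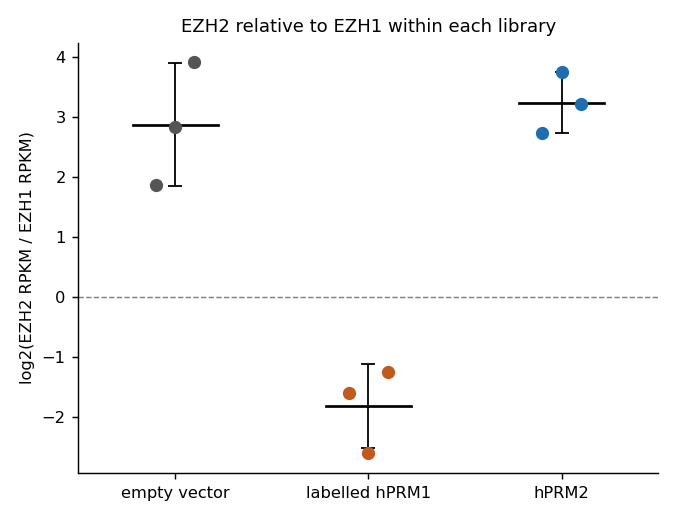
log2 ratio of EZH2 RPKM to EZH1 RPKM (y axis) in each library of the 3 conditions (x axis), with the mean and SD of the 3 replicates. The dashed line marks equal levels, above which lie the empty vector (1.87 to 3.92) and hPRM2 (2.75 to 3.76) and below which lie the libraries labelled hPRM1 (-2.60 to -1.24).

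In the empty vector, all 10 genes were detected in every library. RBBP7 had the highest mean, 254 ± 45.2 RPKM (SD, n = 3), and its 3 libraries lay above all libraries of RBBP4, the next gene, at 121 ± 58.6 RPKM. MTF2 and EED followed, then SUZ12 and EZH2 at 46.1 ± 5.88 and 42.6 ± 11.97 RPKM, whose libraries overlapped. PHF19, JARID2, AEBP2 and EZH1 were lowest, with means from 29.9 RPKM for PHF19 down to 7.09 RPKM for EZH1. The order in the libraries labelled hPRM1 was different at both ends. JARID2 was first at 31.1 ± 1.999 RPKM and apart from the next gene, EZH2 was last at 1.69 ± 0.30 RPKM and apart from the gene above it, and the 8 genes between overlapped with their neighbours. In hPRM2, RBBP7, RBBP4, MTF2, SUZ12, EED, PHF19, EZH2 and JARID2 followed each other with overlapping libraries, and AEBP2 and EZH1 were lowest.

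A rank within the library, which does not change with a scaling factor, set EZH2 and EZH1 apart in the same way. It does move with the number of genes above 0, which was 9652 in hPRM2 replicate 1 and 15633 in hPRM2 replicate 3. Among 14825 genes tested in at least 1 comparison, EZH2 was at percentile 75.7 to 82.6 in the empty vector, 38.6 to 47.8 in the libraries labelled hPRM1 and 58.2 to 71.7 in hPRM2. EZH1 was at percentile 25.2 to 54.3 in the empty vector, 64.4 to 72.7 in the libraries labelled hPRM1 and 27.97 to 42.5 in hPRM2. JARID2 moved from 69.5 to 73.2 in the empty vector up to 88.4 to 91.1 in the libraries labelled hPRM1, and lay at 58.0 to 64.1 in hPRM2. RBBP7 went the other way, from 94.8 to 95.9 in the empty vector to 68.8 to 78.7 in the libraries labelled hPRM1. PHF19 overlapped, at 72.8 to 75.3 in the empty vector and 63.5 to 76.5 in the libraries labelled hPRM1. These percentiles are a description and were not tested.

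**Figure D2:**
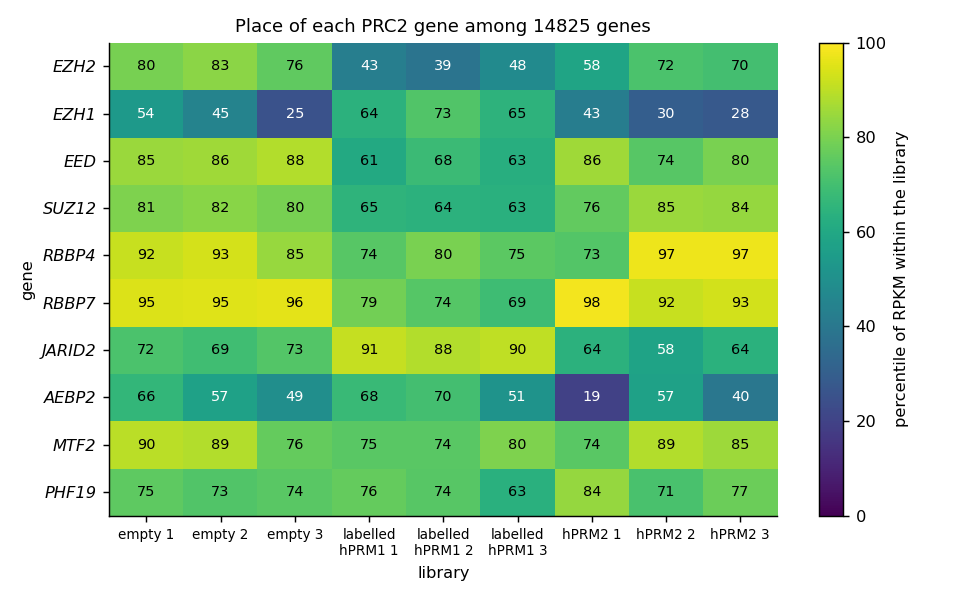
Percentile of each PRC2 gene (rows) among 14825 genes within each of the 9 libraries (columns), coloured and printed, from 0 for the lowest RPKM to 100 for the highest. Within its row EZH2 is darkest in the libraries labelled hPRM1 (38.6 to 47.8), where EZH1 (64.4 to 72.7) and JARID2 (88.4 to 91.1) are above their place in the empty vector.

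Compared with the empty vector, the libraries labelled hPRM1 had lower levels of 8 of the 10 genes: EZH2, EED, SUZ12, RBBP4, RBBP7, MTF2, PHF19 and AEBP2 (limma, with a call set at an adjusted p of 0.05 or less together with a change of 2-fold or more). EZH1 and JARID2 were not called, and 0 of the 10 were higher at an unadjusted p under 0.05, where 66.4% of all tested genes were lower and 14.3% higher. Of all 13588 tested genes, 62.5% were called lower and 12.9% higher, so a count of 8 lower genes in 10 is close to the background. The median log2 fold change was -2.77 over the 10 genes and -1.72 over all tested genes. In the same libraries HEK293T markers were near 0 and blood markers high, as given above, and their part in these calls was not tested. Nothing in the sources says that the replicates were separate cultures, so the p-values measure the spread between these libraries, which may be technical.

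The median over all genes moved with the scaling of the libraries. It came to -0.12 with the libraries rescaled by the median of ratios and to -0.39 with quantile normalization. Of the 8 lower genes, 4 kept the call after rescaling by the median of ratios (EZH2, EED, RBBP4 and RBBP7) and a further gene, SUZ12, after quantile normalization. EZH1 and JARID2 were called higher under both. Of all tested genes, 28.9% were then called lower and 28.8% higher with the median of ratios, and 35.2% and 25.3% with quantile normalization. AEBP2 turned to 0.66 and 0.35, and PHF19 to 0.20 with the median of ratios but not with quantile normalization, all short of a call.

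Of the core, EZH2 had a log2 fold change of -3.99 (SE 0.26, limma adjusted p = 2.09e-05), and of -2.15 with the median of ratios. A per-gene test on RPKM, run here with unequal variances, gave EZH2 an adjusted p of 0.0622, and RBBP4, MTF2 and AEBP2 also lost their call with it (adjusted p = 0.122, 0.136 and 0.153). That test called 3727 of all 13588 tested genes lower, beside 8491 with limma. EED (ENSG00000074266, chr11:86244544-86278813, plus strand), which binds the methylated histone tail and stimulates the enzyme, was at 63.7, 71.4 and 85.2 RPKM in the empty vector and at 3.87, 7.09 and 4.37 RPKM in the libraries labelled hPRM1. The groups were far apart, and the log2 fold change was -3.63 (SE 0.26, limma adjusted p = 2.82e-05). SUZ12 (ENSG00000178691, chr17:31937018-32001045, plus strand), the scaffold of the complex, was at 45.2, 52.4 and 40.8 RPKM against 4.87, 5.72 and 4.53 RPKM. Its replicates were close to each other in both groups, and its log2 fold change was -2.96 (SE 0.20, limma adjusted p = 2.22e-05), or -0.94 with the median of ratios, below a 2-fold change. SUZ12P1, a pseudogene copy with which SUZ12 could share reads, was at 39.9, 33.9 and 19.1 RPKM in the empty vector and 2.32, 2.34 and 2.45 RPKM in the libraries labelled hPRM1, so the level of SUZ12 is uncertain.

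The shared histone-binding subunits fell as well. RBBP7 (ENSG00000102054, chrX:16839283-16870414, minus strand) was at 222, 235 and 306 RPKM in the empty vector and at 11.1, 9.74 and 6.11 RPKM in the libraries labelled hPRM1. This was the largest fall of the 10 genes, with a log2 fold change of -4.70 (SE 0.26, limma adjusted p = 1.13e-05) and of -2.60 with the median of ratios. RBBP4 (ENSG00000162521, chr1:32651142-32686211, plus strand) was at 127, 176 and 59.8 RPKM against 8.11, 14.7 and 8.80 RPKM. The empty vector replicates of RBBP4 differed among themselves, and its log2 fold change was -3.32 (SE 0.44, limma adjusted p = 0.000421) or -1.22 with the median of ratios. TXLNG overlaps RBBP7 on the other strand and SYNC overlaps RBBP4, and whether counting used the strand is not given in the sources used here. TXLNG was at 23.2 to 32.1 RPKM in the empty vector and SYNC at 0.0594 to 1.29 RPKM.

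Of the accessory subunits, MTF2, PHF19 and AEBP2 were called lower and JARID2 was not. MTF2 and PHF19 are Polycomb-like proteins that lead one form of the complex to CpG islands, and JARID2 and AEBP2 belong to the other form. MTF2 (ENSG00000143033, chr1:93079235-93139081, plus strand) was at 99.8, 93.6 and 32.1 RPKM in the empty vector and 8.43, 10.2 and 12.8 RPKM in the libraries labelled hPRM1. Empty vector replicate 3 was well below the other 2, and the log2 fold change was -2.58 (SE 0.46, limma adjusted p = 0.00173). PHF19 (ENSG00000119403, chr9:120855652-120894896, minus strand) was at 32.2, 28.9 and 28.5 RPKM against 9.49, 10.04 and 4.54 RPKM. Its log2 fold change of -1.84 (SE 0.31, limma adjusted p = 0.00131) was close to the median of all genes and turned to 0.20 with the median of ratios.
JARID2 (ENSG00000008083, chr6:15246296-15522040, plus strand), which recruits the complex and stimulates it, was at 26.6, 24.4 and 26.8 RPKM in the empty vector and at 33.4, 29.6 and 30.4 RPKM in the libraries labelled hPRM1. The groups did not overlap, but the log2 fold change was 0.25 (SE 0.17, limma adjusted p = 0.209). It was called higher with the median of ratios at 2.36 (SE 0.20, adjusted p = 9.34e-05) and with quantile normalization at 1.94. AEBP2 (ENSG00000139154, chr12:19404045-19720801, plus strand), a zinc finger protein that stabilises the complex, was at 20.0, 13.5 and 8.24 RPKM against 5.63, 7.98 and 2.46 RPKM. Its highest library labelled hPRM1 lay just below its lowest empty vector library, with a log2 fold change of -1.26 (SE 0.45, limma adjusted p = 0.0376), or 0.66 with the median of ratios. Its call was lost in 10 of 15 alternatives in which it was tested, with adjusted p-values from 0.0117 to 0.488 over all of them. The 4 replicates whose omission ended it were empty vector replicates 1 and 2 (adjusted p = 0.108 and 0.0772) and replicates 1 and 3 labelled hPRM1 (adjusted p = 0.0653 and 0.101).
EZH1 had a log2 fold change of 0.00 (SE 0.56, limma adjusted p = 0.995). It was called higher with the median of ratios at 1.81 (SE 0.45, adjusted p = 0.0107) and with quantile normalization at 1.55 (adjusted p = 0.0208).

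**Figure D3:**
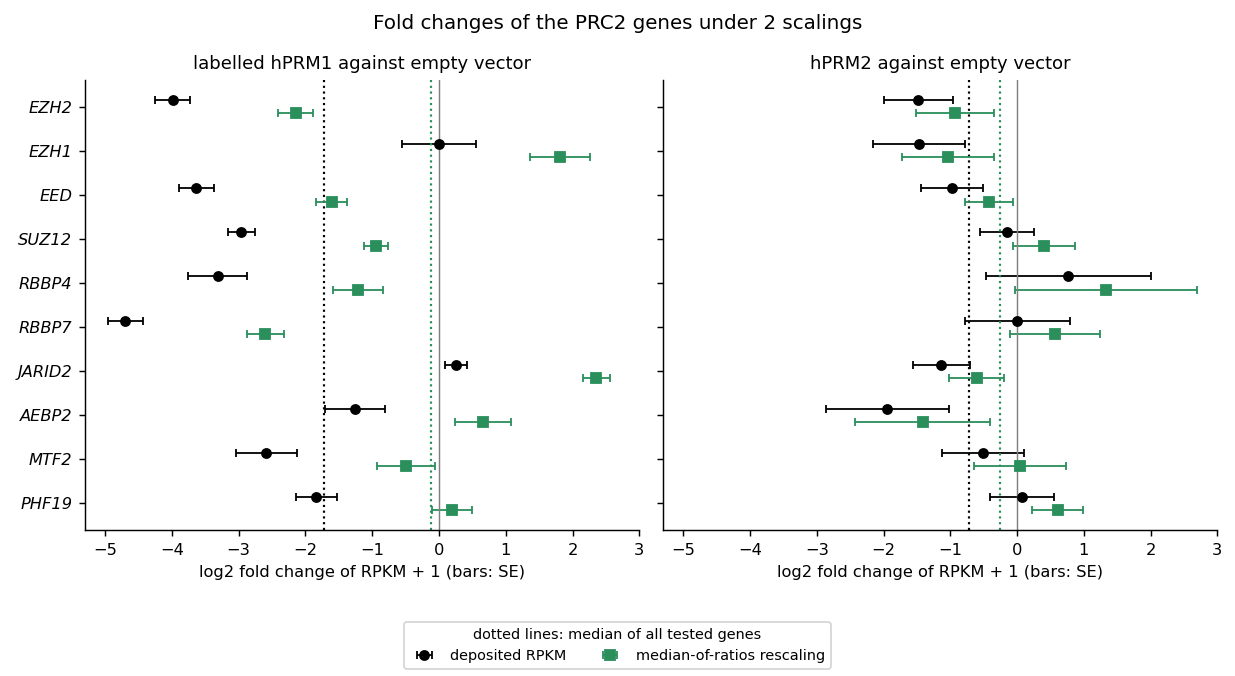
log2 fold change of RPKM + 1 with its SE (x axis) for the 10 PRC2 genes (y axis), for the libraries labelled hPRM1 (left) and hPRM2 (right) against the empty vector, as deposited (circles) and after rescaling by the median of ratios (squares). Dotted lines give the median of all tested genes, -1.72 and -0.12 on the left and -0.72 and -0.25 on the right, and on the left EZH2, EED, RBBP4 and RBBP7 lie furthest below the median and EZH1 and JARID2 furthest above it under both scalings.

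In hPRM2, none of the 10 genes was called against the empty vector with limma, while EZH2 and JARID2 were lower at an unadjusted p under 0.05 (0.0243 and 0.0337). Of all tested genes, 20.6% were lower and 4.88% higher at that level. The per-gene test on RPKM called 0 of the 10, but of all 13126 tested genes it called only 9 lower and 0 higher. With limma, 1.37% of the 13126 genes were called lower and 1.36% higher. The shares were 0.625% and 1.68% with the median of ratios and 0.655% and 1.81% with quantile normalization. The median log2 fold change was -0.75 over the 10 genes and -0.72 over all tested genes, the latter -0.25 with the median of ratios and -0.43 with quantile normalization. The same empty vector libraries served both comparisons. By the estimate of reads per library hPRM2 rests on the fewest reads, and replicate 1 stood apart from replicates 2 and 3 in several of these genes.

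EZH2 was lower in each hPRM2 library than in each empty vector library, with a log2 fold change of -1.48 (SE 0.52, limma adjusted p = 0.145). JARID2 was at 11.4, 8.82 and 14.1 RPKM in hPRM2, below 24.4 to 26.8 RPKM in the empty vector, with a log2 fold change of -1.13 (SE 0.43, adjusted p = 0.165). EED, at 62.8, 22.2 and 34.9 RPKM, was the third gene whose groups did not overlap, with replicate 1 just under the lowest empty vector library. Of all tested genes, 29.9% lay below the empty vector in every hPRM2 library and 6.01% above it. EZH1 had a log2 fold change of -1.46 (SE 0.69, adjusted p = 0.233), nearly that of EZH2, and hPRM2 replicate 3 equalled empty vector replicate 3 at 2.04 RPKM. SUZ12 was at 27.4, 50.3 and 51.0 RPKM, PHF19 at 54.4, 18.8 and 29.9 RPKM and MTF2 at 24.3, 75.0 and 55.2 RPKM. These 3 genes overlapped with the empty vector, and their log2 fold changes were -0.15, 0.07 and -0.52 with limma adjusted p-values from 0.603 to 0.934, where those of SUZ12 and MTF2 turned to 0.40 and 0.04 with the median of ratios. AEBP2 was listed at 0 in hPRM2 replicate 1, which allows up to 3 reads, and was at 8.51 and 4.17 RPKM in replicates 2 and 3.

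In RPKM, the largest spread between the hPRM2 libraries was in RBBP4 and RBBP7, in opposite directions. On the log2 scale, AEBP2 had a larger SE against the empty vector (0.92) than RBBP7. RBBP4 was at 21.96, 576 and 516 RPKM in hPRM2 replicates 1, 2 and 3, and RBBP7 was at 972, 113 and 146 RPKM. Replicate 1 was thus below the empty vector for RBBP4 and above it for RBBP7, and the other 2 replicates were the reverse. The ratio of RBBP7 to RBBP4 was 44.2 in replicate 1 and 0.196 and 0.283 in replicates 2 and 3, against 1.75, 1.33 and 5.12 in the empty vector and 1.36, 0.661 and 0.694 in the libraries labelled hPRM1. This pair of genes was set side by side after its values were seen. The log2 fold changes against the empty vector were 0.77 (SE 1.23, limma adjusted p = 0.703) for RBBP4 and 0.00 (SE 0.78, adjusted p = 0.997) for RBBP7. Without hPRM2 replicate 1, RBBP4 was called higher at 2.29 (SE 0.46, adjusted p = 0.0326) and EED lower at -1.36 (SE 0.32, adjusted p = 0.0418). Calls rose over all genes as well, to 1577 lower and 680 higher of 12825 tested, from 180 and 179 of 13126. RBBP7 was then at -0.97 (SE 0.25, adjusted p = 0.0491), short of a 2-fold change, and EZH2 at -1.06 (adjusted p = 0.0748). JARID2 was called lower in the fit of all 9 libraries (adjusted p = 0.0345), which called 1618 of all 13126 tested genes lower, beside 180 in the main fit.

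Set directly against hPRM2, the libraries labelled hPRM1 had lower levels of EZH2, EED, SUZ12, RBBP4, RBBP7, MTF2 and PHF19 and higher levels of EZH1 and JARID2 (limma), and AEBP2 was not called. All these libraries also enter the comparisons with the empty vector. Of 11756 tested genes, 37.0% were called lower and 16.0% higher, with a median of -0.97, or 0.49 with the median of ratios and 0.13 with quantile normalization. The shares called lower and higher were 18.3% and 31.2% with the median of ratios and 22.0% and 26.6% with quantile normalization. EZH1 rose by 1.47 (SE 0.42, adjusted p = 0.0261) and JARID2 by 1.39 (SE 0.33, adjusted p = 0.0119) on the log2 scale, and both were called higher under the other scalings too, at 2.79 and 3.19 with the median of ratios. EZH2 fell by 2.51 (SE 0.48, adjusted p = 0.00538), which was -0.95 and not called with the median of ratios. Of the 7 lower genes, RBBP7 alone was called with the median of ratios, at -2.84 against -4.70 as deposited. The 2 higher calls were both lost when replicate 1, 2 or 3 labelled hPRM1 was left out (adjusted p from 0.0669 to 0.160), and EZH1 was also lost without hPRM2 replicate 2 (adjusted p = 0.0536). The lower calls came to 4 without replicate 1 labelled hPRM1, where 3046 of 10337 tested genes were called lower. Over all genes, 402 to 432 were called higher without replicate 1, 2 or 3 labelled hPRM1, beside 1879 of 11756 with no replicate left out.

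The genes most like EZH2 and EZH1 over the 9 libraries were sought among 12219 protein-coding genes by Pearson's r of log2(RPKM + 1). For EZH2 they were KLHL23 (r = 0.996), LSM1, a subunit of a ring that promotes mRNA decapping (r = 0.995), and the stress-induced transcription factor ATF3 (r = 0.995). ATF3 was at 98.3 to 207 RPKM in the empty vector, at most 0.344 RPKM in the libraries labelled hPRM1 and 9.56 to 31.6 RPKM in hPRM2. For EZH1 they were NPFF, a neuropeptide precursor (r = 0.971), SETBP1 (r = 0.953) and COLQ, the collagen tail of acetylcholinesterase (r = 0.939). SETBP1 and COLQ did not exceed 2.02 and 1.56 RPKM in any library, and NPFF was at 16.6, 6.15 and 0 RPKM in the empty vector, so that the likeness to EZH1 rests on low values. The 9 points share 3 conditions and the depth of their libraries, and the correlations are a description.

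The other genes of the Polycomb system were taken from lists whose choice was made with earlier results of these data known. In the libraries labelled hPRM1, 19 of 24 subunits of Polycomb repressive complex 1 (PRC1), which places ubiquitin on histone H2A and binds the PRC2 mark, were called lower and 2 higher, with a median of -1.86 beside -1.72 over all genes. Of all tested genes, 62.5% were called lower and 12.9% higher. With the median of ratios the PRC1 counts were 8 and 5, beside 28.9% and 28.8% of all tested genes. The largest falls were in PCGF2, from 135 ± 95.6 to 0.0589 ± 0.102 RPKM, and in CBX2, a reader of the mark, from 26.5 ± 1.71 to 0.0129 ± 0.0224 RPKM (SD, n = 3 each). The largest rises were in PCGF5, from 18.8 ± 0.841 to 154 ± 38.2 RPKM (log2 fold change 2.94, limma adjusted p = 3.11e-05), and CBX7, another reader, from 7.85 ± 6.57 to 23.1 ± 0.894 RPKM (1.75, adjusted p = 0.0248). All 4 kept their direction under both other scalings. In hPRM2, 0 of the 24 were called (limma), with 7 lower at an unadjusted p under 0.05, beside 20.6% of all tested genes.

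Of 5 further PRC2 partners, 4 were tested and 2 called lower in the libraries labelled hPRM1: EPOP, which links the complex to elongin (-3.002, limma adjusted p = 6.50e-05), and LCORL (-2.95, adjusted p = 0.000129). Of all tested genes, 62.5% were called lower there. LCOR was at -1.197 (adjusted p = 0.0529) and turned to 0.70 with the median of ratios. PHF1, the third Polycomb-like protein, was at 0.32 (adjusted p = 0.655), and EZHIP, an inhibitor of the enzyme, was above 0 in 1 library alone and was not tested. In hPRM2 these 4 genes were at -1.53 for PHF1, -0.33 for EPOP, -0.96 for LCOR and -0.38 for LCORL, and none was called (adjusted p from 0.261 to 0.818).
Among the enzymes that act on the same lysine, the demethylase KDM6A fell in the libraries labelled hPRM1, from 7.87 ± 2.02 to 2.14 ± 1.60 RPKM (-1.59, limma adjusted p = 0.00826), but was at 0.09 with the median of ratios. Its relative KDM6B rose from 3.77 ± 2.30 to 13.7 ± 3.26 RPKM (1.75, adjusted p = 0.0108), in the same direction under both other scalings. The acetyltransferases CREBBP (1.12, adjusted p = 0.184) and EP300 (-0.08, adjusted p = 0.751) were not called, and EP300 was at 1.96 with the median of ratios. In hPRM2 the same 4 genes were at 0.29, -1.05, -0.44 and 0.47 for KDM6A, KDM6B, CREBBP and EP300, with adjusted p-values from 0.369 to 0.832.

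Of the PR-DUB complex, which removes the PRC1 mark, 10 of 11 genes were tested, with 5 called lower and 1 higher in the libraries labelled hPRM1, or 2 and 4 with the median of ratios. Of all tested genes, 62.5% were called lower and 12.9% higher, or 28.9% and 28.8% with the median of ratios. FOXK2 (-3.47) and ASXL1 (-3.08) fell most and MBD6 rose (1.17, limma adjusted p = 0.00042), from 199 ± 13.7 to 451 ± 51.3 RPKM. Of 18 partners of RBBP4 and RBBP7 outside PRC2, mainly of the NuRD and SIN3 deacetylase complexes and chromatin assembly factor 1, 11 were called lower and 0 higher, with a median of -2.19, beside 62.5% of all tested genes called lower. With the median of ratios 5 were called lower and 3 higher, and with quantile normalization 8 and 2, beside 35.2% and 25.3% of all tested genes. HDAC2 fell from 55.9 ± 15.5 to 2.18 ± 0.643 RPKM (-4.14, adjusted p = 2.84e-05) and MTA3 from 22.5 ± 8.90 to 0.593 ± 0.210 RPKM. These falls kept their direction under both other scalings. In hPRM2, 0 of the 10 and 0 of the 18 were called (limma), with 4 and 4 lower at an unadjusted p under 0.05, beside 20.6% of all tested genes.

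EZH2 is known as a gene of dividing cells. Of 16 proliferation genes, 15 were tested and all 15 called lower in the libraries labelled hPRM1, also under both other scalings. Of all tested genes, 62.5% were called lower as deposited, 28.9% with the median of ratios and 35.2% with quantile normalization. The median of the 15 genes, -5.28, was below the -3.99 of EZH2, and the part of proliferation in the fall of EZH2 was not tested. TOP2A, the topoisomerase of mitotic chromosomes, fell from 781 ± 188 to 1.197 ± 0.346 RPKM, and CDK1, the mitotic kinase, from 292 ± 137 to 0.234 ± 0.405 RPKM (SD, n = 3 each). In hPRM2, 0 of the 16 were called (limma), with 7 lower at an unadjusted p under 0.05, beside 20.6% of all tested genes, and a median of -0.80 beside -0.72 over all genes.

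Of 23 developmental genes known as PRC2 targets, 14 had a mean of at least 1 RPKM in the empty vector, 5 in the libraries labelled hPRM1 and 10 in hPRM2. Of the 23, 4 were listed at 0 in each of the 3 empty vector libraries, 15 in all libraries labelled hPRM1 and 8 in all hPRM2 libraries. Of the 15 tested in the libraries labelled hPRM1, 12 were called lower and 2 higher, beside 62.5% and 12.9% of all tested genes. A gene listed at 0 in those libraries was tested only through the empty vector, so lower was its only possible call. OLIG1, in turn, was tested only through the libraries labelled hPRM1. CDKN2A, the p16 and p14 cell cycle inhibitor locus, fell from 634 ± 119 to 1.80 ± 1.29 RPKM (-7.91, limma adjusted p = 5.40e-06), and HAND1, a heart and trophoblast factor, was at 16.7 ± 7.83 RPKM in the empty vector and listed at 0. The rises were in OLIG1, a factor of the oligodendrocyte lineage, from 0.138 ± 0.122 to 71.7 ± 25.7 RPKM (5.93, adjusted p = 1.05e-05), and in EOMES, a T-box factor also used by lymphocytes, from 2.07 ± 1.54 to 9.25 ± 1.88 RPKM (1.86, adjusted p = 0.00509). All 4 directions were kept under both other scalings. In hPRM2, 2 of 13 tested were called lower, PDX1 and GSC, beside 1.37% of all tested genes. PDX1 kept the call with the median of ratios (limma adjusted p = 0.0489, and 0.0506 for GSC) and neither did with quantile normalization (0.0579 for both). Both were tested only through the empty vector, so lower was the only call open to them. PDX1 was at 2.91, 3.01 and 3.30 RPKM and GSC at 3.11, 3.11 and 2.29 RPKM in the empty vector. Both were listed at 0 in all hPRM2 libraries (limma adjusted p = 0.0377 and 0.0413). At the lower estimated depth of hPRM2 a value of 0 allows up to 3 reads in each.

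**Figure D4:**
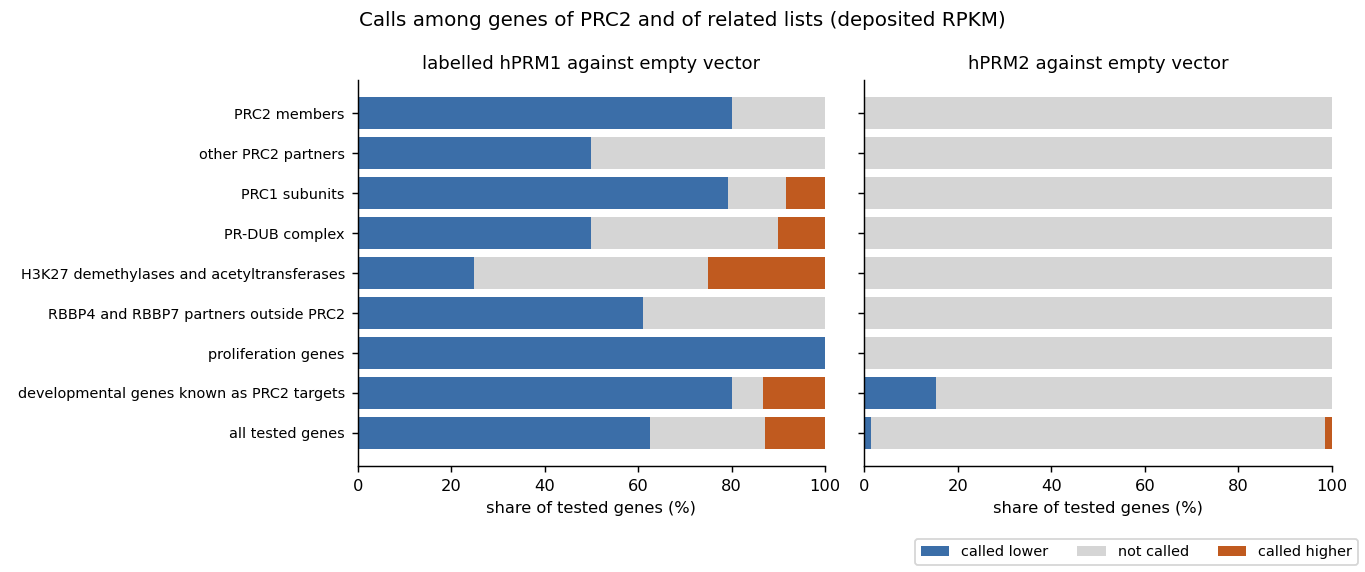
Share of tested genes (x axis, %) called lower, not called and called higher against the empty vector in the PRC2 genes and 7 related lists (y axis), with all tested genes in the last bar, for the libraries labelled hPRM1 (left) and hPRM2 (right) as deposited. On the left 8 of 10 PRC2 genes, 19 of 24 PRC1 subunits and 15 of 15 proliferation genes are lower. All tested genes stand at 62.5% lower there. On the right, of these 8 lists, only the developmental genes hold calls, 2 of 13 lower beside 1.37% of all genes.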

How the data were processed

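RNA was isolated with the NucleoSpin RNA Plus kit and made into QuantSeq 3′ libraries. According to the methods, the authors ran nf-core/rnaseq with FastQC, Cutadapt, STAR and Salmon, removed mitochondrial genes and turned counts into RPKM with the library total and the length of each gene. The build is hg38 per the labels, while tool versions, annotation, lengths and strand setting are not given in the sources used here. The deposited values are RPKM of 57338 genes without counts, in 9 columns, and replicates were not pooled.

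Here genes that reached 1 RPKM in 3 or more of the 6 libraries compared were tested on log2(RPKM + 1) in R 4.3.3 with limma 3.58.1 (lmFit, eBayes with trend and robust), each comparison in its own fit without a replicate block, with Benjamini-Hochberg adjustment over all tested genes. A call needed an adjusted p of 0.05 or less and a change of 2-fold or more. On this scale the change of low genes is understated. A gene under 1 RPKM in all libraries of 1 group was tested only through the other group, so its call could go 1 way only. The procedure was tested on simulated data. Ratios of EZH2 to EZH1 used no pseudocount and two-sided exact permutation tests. Reads per library were estimated from the value that 1 read gives in genes with a single transcript in GENCODE 29. Too few genes gave whole reads for a count test. The lengths behind the RPKM may differ between libraries: among the pairs of libraries checked, ratios of low values were small whole-number ratios for 55.6% to 65.7% of genes with 1 transcript and for 30.9% to 41.6% of genes with at least 5. Limits on reads cover counting error only.

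The PRC2 genes and the lists were chosen with earlier results of these data known. All 10 PRC2 genes are named. Of each other list up to 2 called genes with the largest rise and up to 2 with the largest fall against the empty vector are named, or every gene of lists of up to 5, and for EZH2 and EZH1 the 3 protein-coding genes with the highest r, leaving out HLA, immunoglobulin, T cell receptor and sex-chromosome-specific genes. Gene positions are from GENCODE 29 on GRCh38, promoters from RefSeq on GRCh38.p14. Alternatives were pseudocounts of 0.1, 1 (ratios) and 5, no filter or a minimum of 10 RPKM, median-of-ratios and quantile scaling, a replicate block, all 9 libraries in a single fit, no fold threshold, a per-gene test on RPKM like that of the methods, run here with unequal variances, and leaving out each replicate. Python 3.11.15, pandas 2.3.3, numpy 2.4.6, SciPy 1.17.1 and matplotlib 3.10.9 were used. DNA methylation, imaging and PCR were not analysed here.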

Additional observations from a re-analysis of the deposited data

How the results depend on the processing

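The number of PRC2 genes called lower in the libraries labelled hPRM1 against the empty vector was 8 as deposited, 4 with the median of ratios, 5 with quantile normalization and 4 with the per-gene test on RPKM, and 7 to 8 when a replicate was left out. The number called higher was 0, and 2 with either rescaling. Of all 13588 tested genes, 8491 were called lower as deposited, 3925 with the median of ratios, 4787 with quantile normalization and 3727 with the per-gene test. Those called higher were 1750 as deposited and 3919 and 3439 with the rescalings. With a replicate left out, the lower calls ran from 5606 of 10512 (without empty vector replicate 2) to 8478 of 12365 (without replicate 2 labelled hPRM1). EZH1 turned to -0.046 with a pseudocount of 5, and was -0.59 (without empty vector replicate 3) to 0.43 when a replicate was left out. AEBP2 turned to 0.66 with the median of ratios and 0.35 with quantile normalization, and PHF19 to 0.20 with the former.

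For hPRM2 against the empty vector, 0 genes were called lower and 0 higher, with 1 lower in the fit of all 9 libraries and 0 to 1 in each direction when a replicate was left out, the calls being RBBP4 and EED without hPRM2 replicate 1. Over all genes, 1618 of 13126 were called lower in the fit of all 9 libraries. Without hPRM2 replicate 1, 1577 of 12825 were called lower and 680 higher. The main fit called 180 lower and 179 higher. SUZ12 turned to 0.40 with the median of ratios and 0.070 with quantile normalization, MTF2 to 0.039 with the former and RBBP7 to -0.0076 with the latter. When a replicate was left out, SUZ12 was -0.30 to 0.14, PHF19 -0.32 to 0.43, RBBP4 -0.032 to 2.29 and RBBP7 -0.97 to 0.58, with 1 end of each range without hPRM2 replicate 1.

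For the libraries labelled hPRM1 against hPRM2, 7 genes were called lower and 2 higher. The lower count was 1 with the median of ratios, 4 with quantile normalization, 0 with the per-gene test on RPKM and 4 to 7 when a replicate was left out. Of all 11756 tested genes, the per-gene test called 103 lower and 116 higher, beside 4355 and 1879 with limma. With a replicate left out, the lower calls over all genes ran from 2912 of 9926 (without hPRM2 replicate 3) to 4352 of 10345 (without hPRM2 replicate 1). The higher count was 1 with a pseudocount of 5, no filter or the per-gene test, and 0 to 2 when a replicate was left out. It was also 1 with a minimum of 10 RPKM, a level EZH1 did not reach, so EZH1 was not tested there. Over all genes, 1304 were called higher with a pseudocount of 5, 1645 without a filter and 402 to 2121 when a replicate was left out. AEBP2 was -0.25 (without hPRM2 replicate 1) to 1.38 when a replicate was left out. The cause of these changes was not tested.

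The difference in log2 EZH2 to EZH1 ratio was -5.19 to -4.17 for the libraries labelled hPRM1 against the empty vector and -5.35 to -4.67 against hPRM2 when a replicate was left out, with p no lower than the design allows. For hPRM2 against the empty vector it was -0.13 to 0.89, turning to -0.016 with a pseudocount of 1 and -0.45 with a pseudocount of 5.

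Deviations from the group mean over 14901 genes correlated at -0.08 to 0.08 between libraries with the same replicate number. Between libraries with different numbers the range was -0.10 to 0.11, so these small values cannot decide whether the numbers pair libraries. With the replicate block, the higher count against hPRM2 was 0 in place of 2, since EZH1 and JARID2 missed the threshold (adjusted p = 0.0765 and 0.0502). Over all tested genes, the higher count was 1797 in place of 1879. The other counts of PRC2 genes were the same with the block, and the ratio differences of -4.69, 0.37 and -5.06 do not change with it by construction.

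Leaving out a replicate also changed how many genes were tested. By the estimate of reads on genes, depth limits hPRM2 most, where EZH1 stands for at most 14 reads in any library.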
